A study of Drosophila melanogaster with 8 samples.

Results

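The genes described here build and organise chitin, the sugar polymer of the insect cuticle, in whole Drosophila embryos. The set was fixed by name as kkv, reb, knk, rtv, verm, serp, mmy, obst-A, Gasp and obst-E. A gene entered when a probe set of the array named it alone in the platform's probe-to-gene table. That gave 10 probe sets for 9 of the 10 genes, out of 13647 single-gene probe sets for 11982 genes. No probe set named rtv alone, so rtv was not analysed here, and obst-E had 2 probe sets. All 10 probe sets passed the filter on low values (2 or more of the 8 arrays with a log2 signal over 4). Of the 9 genes 7 would have passed it on the arrays of either stage. reb passed through stage 14 only and obst-E through stage 16 only, so both had to differ between the stages and are kept apart below.

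The study switched on DIMMED, a transcription factor of peptide-secreting neuroendocrine cells, in all neurons. The dimm embryos were w;UAS-dimm2A3/+;elav-GAL4/+, with a myc-tagged transgene, and the control embryos were the driver line w;;elav-GAL4. Both groups thus carry the w mutation and elav-GAL4. Besides the transgene, they differ in GAL4 dose and in what came from the father. The driver elav-GAL4 is known for its activity in neurons, whereas the RNA came from dechorionated whole embryos. Each genotype was sampled at stage 14 (22 to 26 h after egg laying in the sample labels, from 24 h in the series text) and at stage 16 (28 to 32 h), with eggs collected at 18 °C from flies reared at 25 °C. Each of the 4 groups had 2 Affymetrix Drosophila Genome 2.0 arrays, numbered 1 and 2 by the labels. By one reading of the series text both arrays of a group share an RNA sample, so errors and p-values rest on a spread that may be technical. Precision is limited by how few the arrays are.

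Chitin is made at the apical surface of epidermal and tracheal cells. The precursor UDP-N-acetylglucosamine is made in the cytoplasm, a chitin synthase in the plasma membrane joins the sugars and extrudes the chain, and extracellular proteins then deacetylate, bind and arrange the fibres. In the Drosophila embryo chitin first fills the tracheal tubes, where it sets their diameter and length, and is then laid down in the epidermal cuticle before hatching. In whole-embryo RNA, more cells of a type and more RNA per cell cannot be told apart.

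All values below are log2 signals made by the authors with GCRMA, a method that corrects each probe set for background and normalises the arrays. A difference of 1 is a doubling, written as a log2 change. Levels are compared between arrays for 1 probe set at a time, never between genes. The transgene's gene dimm lay between 2.53 and 2.86 on control arrays and between 5.51 and 8.26 on dimm arrays, and elav, the gene behind the driver, differed by 0.02 ± 0.06 (SE, 4 arrays against 4). Between 7574 and 7651 probe sets lay above 4 on an array. At stage 16 both arrays numbered 1 stood apart. The 5′ minus the 3′ signal of the actin control transcript was -8.69 (control) and -8.0 (dimm) there, against -4.48 to -2.93 on the other 6 arrays. Markers of several tissues were read: all 3 muscle, all 4 glial, all 4 tracheal and all 3 cuticle markers with a probe set passed the filter. So did 3 of 4 salivary gland and 2 of 3 neuronal markers, but only 1 of 4 midgut, 1 of 3 fat body and 2 of 4 haemocyte markers.

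The first comparison asked how the chitin genes differed between stages 14 and 16 within a genotype. Of the 7 genes bright enough at both stages, kkv, knk, mmy and Gasp rose in control embryos, from 1.5-fold for mmy to 3.12-fold for kkv, while verm, serp and obst-A did not pass. In dimm embryos serp rose as well. obst-E and reb also passed the test, obst-E higher and reb lower at stage 16, but each was below 4 on most arrays of 1 stage. The size of their change is therefore also given with values below 4 raised to 4. That bounds the part of background and not the spread of the arrays.

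**Figure D1:**
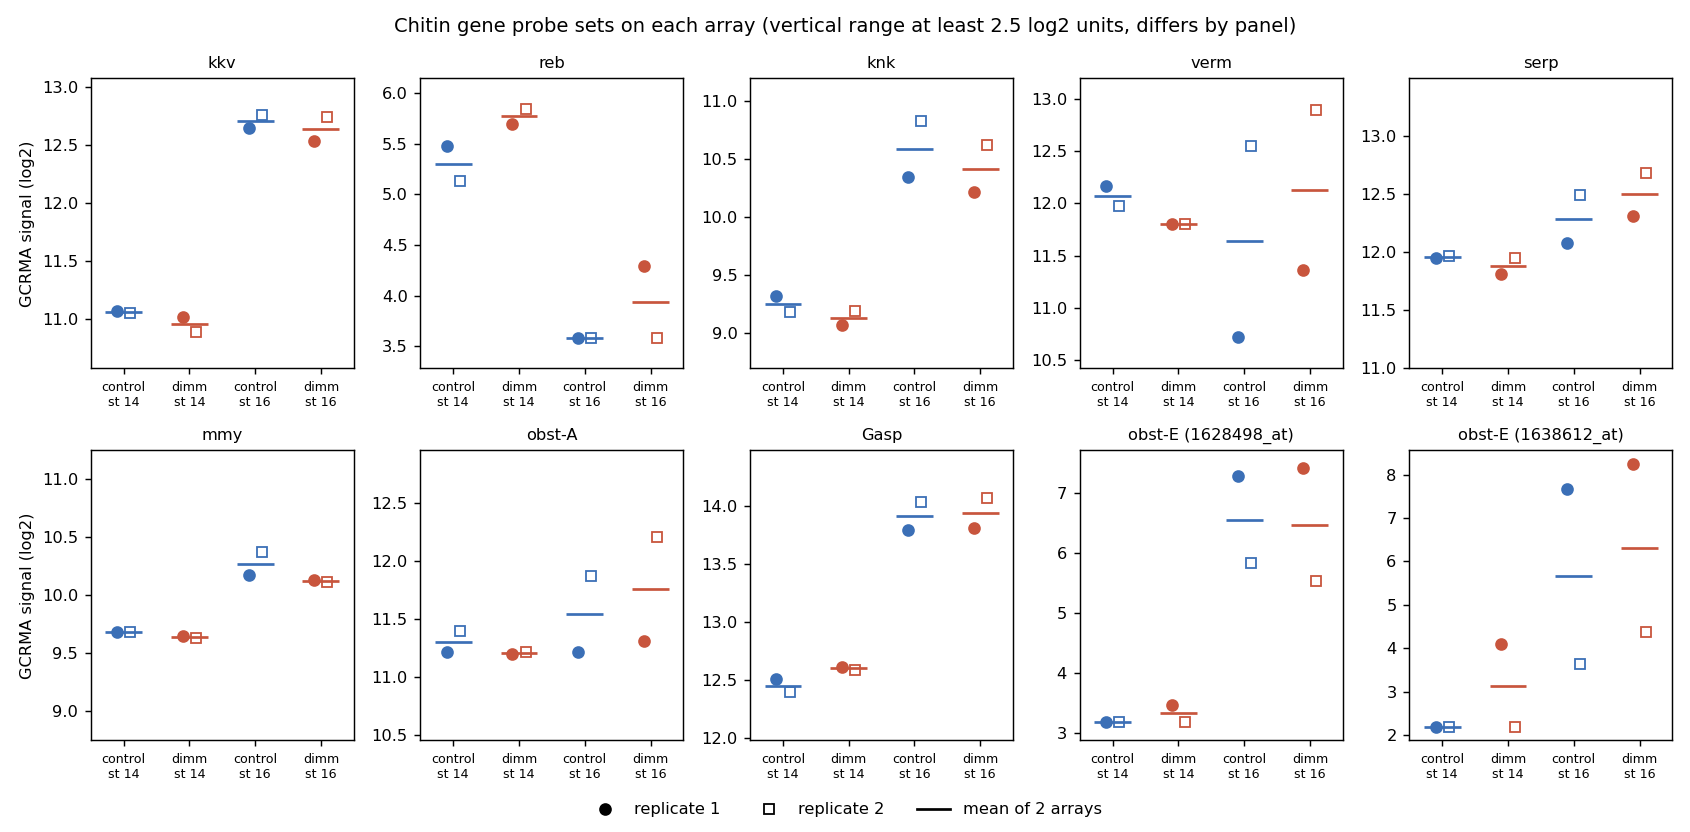
Log2 GCRMA signal of each of the 10 probe sets on each of the 8 arrays (control in blue, dimm in red, filled circles replicate 1, open squares replicate 2, lines the means of 2 arrays), with a vertical range that differs by panel. The kkv, knk, mmy and Gasp arrays of stage 16 lie above those of stage 14 in both genotypes, reb arrays lie below, and the stage 16 arrays of verm and obst-E lie far from each other.

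The precursor step was represented by mmy (probe set 1634606_a_at), which encodes the UDP-N-acetylglucosamine pyrophosphorylase that completes the activated sugar. Its signal was 9.68 on both control arrays of stage 14 and 10.17 and 10.36 at stage 16. In dimm embryos it was 9.64 and 9.62 at stage 14 and 10.13 and 10.11 at stage 16. Every stage 16 array lay above every stage 14 array. The log2 rise was 0.59 ± 0.09 (SE) in control and 0.48 ± 0.09 in dimm embryos (2 arrays against 2, adjusted p = 0.00311 and 0.00619 in limma), a change of 1.5-fold and 1.40-fold.

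The synthase itself, kkv (krotzkopf verkehrt, 1639130_a_at), makes the chitin of cuticle and trachea. Control arrays read 11.07 and 11.05 at stage 14 and 12.65 and 12.76 at stage 16. Dimm arrays read 11.02 and 10.89 at stage 14 and 12.54 and 12.74 at stage 16. The stages lay more than 1 log2 unit apart with no overlap, and the arrays of a group differed by at most 0.20. kkv rose 3.12-fold in control embryos (log2 1.64 ± 0.11, 95% interval 1.37 to 1.91, adjusted p = 9.34e-05 in limma) and 3.21-fold in dimm embryos (1.68 ± 0.11, adjusted p = 8.08e-05). In control embryos 12.5% of the tested probe sets had a larger log2 change, and in dimm embryos 12.2% had.

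The gene reb (rebuff, 1624891_at) encodes a protein that, like its paralogue exp (expansion), lets kkv deposit chitin. It was the only one of the 9 genes called lower, and it had passed the filter only through stage 14. Control arrays read 5.48 and 5.13 at stage 14 and 3.58 on both at stage 16, and dimm arrays read 5.70 and 5.85 at stage 14 and 4.29 and 3.58 at stage 16. The same value of 3.58 on 3 of the 4 stage 16 arrays is below the threshold of 4, so the size of the fall depends on the background of the probe set. The fitted log2 change of reb was -1.73 ± 0.25 in control embryos (adjusted p = 0.00236 in limma) and -1.84 ± 0.25 in dimm embryos (adjusted p = 0.00172). With all values below 4 raised to 4 the changes of reb were smaller, at -1.30 and -1.63, and still passed. By the means of 2 arrays reb was then 2.47-fold lower in control and 3.09-fold lower in dimm embryos.

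In the RefSeq gene table reb and exp are next to each other, and their signals moved in opposite directions. exp rose by 0.97 ± 0.16 in control embryos (adjusted p = 0.00389 in limma) and by 1.07 ± 0.16 in dimm embryos, from 9.69 and 9.66 on the control arrays of stage 14 to 10.48 and 10.80 at stage 16. The second fly chitin synthase gene, Chs2, known from the gut lining of insects, was called lower in both genotypes. Its stage 14 arrays lay between 4.69 and 5.11 and its stage 16 signal was 2.55 on all 4 arrays, so Chs2 too had passed the filter through stage 14 only. With values below 4 raised to 4 it was, by the means of 2 arrays, 2.02-fold lower in control and 1.64-fold lower in dimm embryos.

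For export and assembly, knk (knickkopf, 1624121_at) encodes a membrane-anchored extracellular protein that protects and organises new chitin. Control arrays of knk read 9.32 and 9.18 at stage 14 and 10.35 and 10.82 at stage 16, and dimm arrays read 9.06 and 9.19, then 10.21 and 10.62. The stages did not overlap. knk rose 2.53-fold in control embryos (log2 1.34 ± 0.21, adjusted p = 0.00305 in limma) and 2.45-fold in dimm embryos (1.29 ± 0.21, adjusted p = 0.0033).

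The deacetylases verm (vermiform, 1624035_a_at) and serp (serpentine, 1632328_at) are secreted into the tracheal lumen, where they modify chitin and limit tube length. Their genes are neighbours in the RefSeq table. serp read 11.94 and 11.96 on control arrays of stage 14 and 12.07 and 12.49 at stage 16, and 11.81 and 11.94, then 12.31 and 12.68, on dimm arrays. All stage 16 arrays of serp were above those of stage 14. serp rose in dimm embryos by 0.62 ± 0.19 (adjusted p = 0.0316 in limma), a call lost without any single stage 14 array or without dimm replicate 2 of stage 16 (adjusted p from 0.0643 to 0.138). In control embryos serp differed by 0.33 ± 0.19 (adjusted p = 0.177).

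For verm the 2 arrays of a stage 16 group lay on either side of stage 14. Control arrays of verm read 12.17 and 11.98 at stage 14, then 10.72 on replicate 1 and 12.55 on replicate 2 of stage 16. Dimm arrays read 11.81 and 11.80, then 11.36 and 12.90 in the same order. The fitted stage change of verm was -0.44 ± 0.73 in control and 0.33 ± 0.73 in dimm embryos, with 95% intervals from -2.27 to 1.40 and from -1.51 to 2.16 (adjusted p = 0.621 and 0.711 in limma). Without both stage 16 arrays numbered 1 verm was higher at stage 16, by 0.48 in control and 1.09 in dimm embryos (adjusted p = 0.0253 and 0.00386). Without both arrays numbered 2 verm was lower, by a log2 change of -1.35 and -0.44 (adjusted p = 0.00232 and 0.0289). These fits have 1 array for each stage 16 group, assumed to vary like the stage 14 arrays.

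The chitin-binding proteins of the obstructor family line the cuticle and tracheal lumen and help to order the matrix. Gasp (1626893_at), the luminal antigen long used to stain embryonic trachea, read 12.50 and 12.39 on control arrays of stage 14 and 13.79 and 14.04 at stage 16, and 12.60 and 12.59, then 13.80 and 14.06, on dimm arrays. The groups were well apart between the stages. Gasp rose 2.76-fold in control embryos (log2 1.46 ± 0.13, adjusted p = 0.00035 in limma) and 2.53-fold in dimm embryos (1.34 ± 0.13, adjusted p = 0.000477).

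obst-A (1640107_at), needed for a chitin matrix that keeps its protective proteins, had overlapping stages in control embryos. Control arrays of obst-A read 11.22 and 11.40, then 11.21 and 11.87, and dimm arrays read 11.20 and 11.22, then 11.31 and 12.21. The lower of the stage 16 arrays was replicate 1 in both genotypes. The log2 change was 0.24 ± 0.35 in control and 0.55 ± 0.35 in dimm embryos (adjusted p = 0.575 and 0.215 in limma), and it passed without both stage 16 arrays numbered 1 (0.57 and 1.0, adjusted p = 0.0158 and 0.00425). Without dimm replicate 1 of stage 16 alone, obst-A passed in dimm embryos (adjusted p = 0.0433). Peritrophin-A, which encodes another protein of the family and is the neighbour of obst-A, read 3.90 on every stage 14 array and between 8.21 and 8.87 at stage 16. It had passed the filter through stage 16 only, and with values below 4 raised to 4 it was at least 23.3-fold higher in control embryos (adjusted p of the fit = 2.85e-05 in limma). Its probe set carries the suffix that marks probes shared with other transcripts.

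obst-E, whose protein in the larval cuticle controls body shape, was near background at stage 14 and had passed the filter through stage 16 only. Its brighter probe set (1628498_at) read 3.18 and 3.17 on control arrays of stage 14 and 7.27 and 5.82 at stage 16, and 3.47 and 3.18, then 7.40 and 5.53, on dimm arrays. All stage 16 arrays were above all stage 14 arrays, and replicate 1 was the higher at stage 16 in both genotypes. The fitted log2 change of this obst-E probe set was 3.37 ± 0.73 in control embryos (adjusted p = 0.0101 in limma) and 3.14 ± 0.73 in dimm embryos (adjusted p = 0.0125). With values below 4 raised to 4 it was 2.55 and 2.46 (adjusted p = 0.0301 and 0.0319), so obst-E was at least 5.84-fold and 5.52-fold higher at stage 16. The control call was lost without either control array of stage 14 (adjusted p = 0.0538 and 0.0539), and the dimm call without either dimm array of stage 14 (adjusted p = 0.0542 and 0.0691).

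The second probe set of obst-E (1638612_at) read 2.18 on both control arrays of stage 14, then 7.67 and 3.65, and in dimm embryos 4.11 and 2.18, then 8.25 and 4.38. The stages did not overlap, but replicate 1 of stage 16 was higher by 4.02 in control and by 3.87 in dimm embryos. Its stage change was 3.48 ± 1.79 in control and 3.17 ± 1.79 in dimm embryos (adjusted p = 0.142 and 0.171 in limma). It passed in control embryos with a single replicate term shared by the stages as a block (adjusted p = 0.0437 in limma). Same-numbered arrays of different stages hardly deviated together, so that block has little ground. Both probe sets of obst-E were thus higher at stage 16, and the test called the brighter one only.

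**Figure D2:**
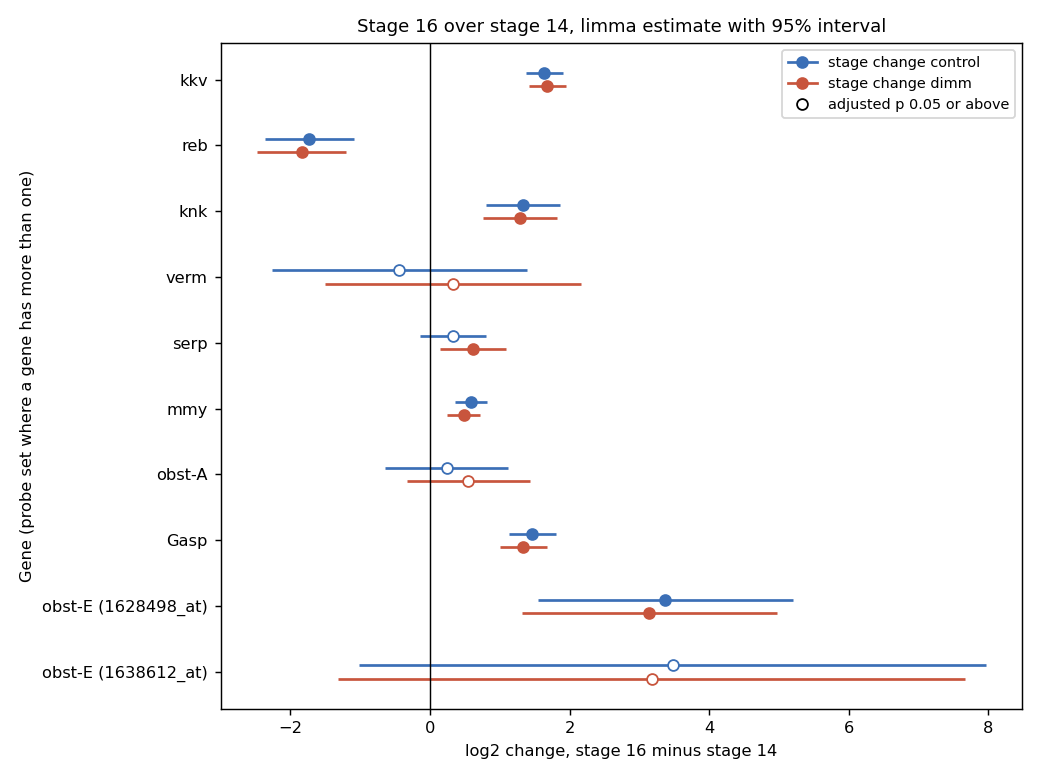
Log2 change from stage 14 to stage 16 for each probe set in control (blue) and dimm embryos (red), with 95% intervals from limma (2 arrays against 2, filled where the adjusted p is under 0.05). kkv, knk, mmy and Gasp sit to the right of 0 with narrow intervals, and reb sits to the left (the sizes for reb and obst-E include signals below 4). The intervals of verm, obst-A and the second obst-E probe set cross 0 in both genotypes, and that of serp does in control embryos.

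Among the 7 genes over the threshold at both stages, 4 rose in control and 5 in dimm embryos and none fell, against 17.1% higher and 38.4% lower in control and 16.1% and 42.7% in dimm embryos for the 7062 probe sets over it at both stages. With obst-E and reb, 5 of 9 were called higher and 1 lower in control embryos and 6 and 1 in dimm embryos, with medians of 0.59 and 0.62. Across all 8258 tested probe sets 60.8% passed in control embryos, 21.8% higher and 39% lower, with a median of -0.38, and in dimm embryos 63.5% passed, 20.7% higher and 42.8% lower, with a median of -0.44. The arrays of the stages did not overlap for 6 higher and 1 lower gene of the 9 in control embryos, and for 84.5% of all probe sets, 29.4% higher and 55.1% lower. In dimm embryos the counts were 7 and 1, against 85.6% of all probe sets, 27.9% higher and 57.7% lower. The total share of the 9 genes that passed was thus near that of all probe sets. The median of all probe sets depends on the scaling of the arrays. Centring each array on its median moved it by 0.21 in control and 0.31 in dimm embryos, and the probe sets past the threshold were then 2177 higher and 2471 lower in control embryos (1799 and 3224 as deposited), and 2260 and 2487 in dimm embryos (1713 and 3532 as deposited). All members called as deposited passed in the same direction after this centring and after quantile normalisation of the 8 arrays together. serp passed in control embryos under both (0.54 with an adjusted p of 0.0462, and 0.40 with an adjusted p of 0.0205), and obst-A in dimm embryos passed under quantile normalisation (0.72, adjusted p = 0.0436).

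Markers of the tissues that make chitin were also measured. The mean level of the 3 cuticle markers with a probe set (Cpr49Ac, Cpr64Ad and TwdlT) was between 4.85 and 5.65 on the stage 14 arrays and between 9.32 and 9.98 at stage 16. Of these TwdlT had passed the filter through stage 16 only and thus had to differ. It lay between 3.22 and 3.55 at stage 14 and between 10.01 and 10.47 at stage 16. The 4 tracheal markers with a probe set, which include Gasp itself, had means of 9.59 to 9.69 at stage 14 and 9.29 to 9.64 at stage 16. That mean joins opposite movements. Gasp rose, btl was called lower in both genotypes, and vvl and pio did not pass in either. btl lay between 3.92 and 4.08 at stage 14 and at 2.19 on the stage 16 arrays, and had passed the filter through stage 14 only. Markers of other tissues moved as well in control embryos. All 3 tested muscle markers rose (Mlc2 by 1.73, Tm2 by 2.83 and up by 3.04), and 3 of 4 glial markers fell (repo -0.41, moody -0.28 and Gli -1.27). Of the 2 tested neuronal markers elav fell, at -0.65, and nSyb was called higher. nSyb lay between 2.52 and 2.53 on the stage 14 arrays and between 6.71 and 6.76 at stage 16. It had passed the filter through stage 16 only, so it had to differ between the stages. The muscle, glial and neuronal markers called here passed in the same direction in dimm embryos. The part of tissue composition in the stage changes was not tested.

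The second comparison concerned the 2 arrays of a stage 16 group. In both genotypes replicate 1 of verm was lower than replicate 2, by differences of -1.84 and -1.54, and replicate 1 of obst-A was lower as well, at -0.66 and -0.90. Replicate 1 of obst-E was higher, by 1.46 and 1.87 in the brighter probe set. kkv differed by -0.11 and -0.20 and Gasp by -0.25 and -0.26, and serp and knk lay between -0.37 and -0.48. The chitin genes thus differed in sign and size between these arrays.

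Set against all tested probe sets, only 2.51% were further below in replicate 1 than verm in both genotypes, and 0.823% were further above than the brighter obst-E probe set. Over 1 log2 unit in both genotypes, 1 of the 9 genes was lower in replicate 1 and 1 was higher, against 5.47% and 1.7% of all probe sets. Of 39 other pathway genes listed below, 1 was lower by that much, ftz-f1 (-2.23 and -1.61), which encodes a nuclear receptor needed for late embryonic cuticle, and none was higher. At stage 14 the largest such difference among the 9 brighter probe sets was 0.35, for reb in control embryos. These are the arrays with low 5′ signal of the control transcripts, and the part of that in the differences was not tested.

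**Figure D3:**
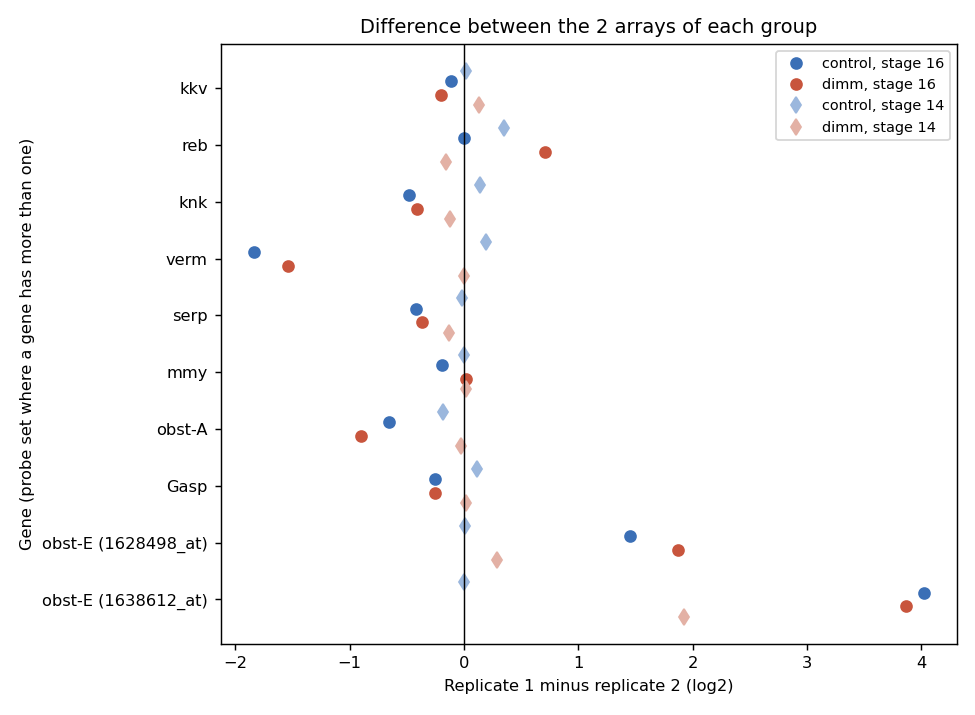
Replicate 1 minus replicate 2 on the log2 scale for each probe set in the 4 groups (circles stage 16, diamonds stage 14, blue control and red dimm). At stage 16 verm lies near -1.8 and -1.5 and the obst-E probe sets lie between 1.46 and 4.02, with both genotypes on the same side of 0.

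The comparison of the study's design, dimm against control embryos, called none of the 9 genes. Averaged over the stages, log2 changes of the brighter probe sets lay between -0.15 (knk) and 0.41 (reb), with a median of 0.06 against 0.00 for all probe sets. In limma 1.5% of all tested probe sets passed an adjusted p of 0.05 in this comparison, 0.969% higher and 0.533% lower. At stage 14 it was 0.339% (0.291% higher and 0.0484% lower), and at stage 16 it was 0.363% (0.218% and 0.145%). Both stages share an estimate of the spread of a probe set, although the stages differed in it. The SD over probe sets of the difference between a group's arrays was 0.17 (control) and 0.34 (dimm) at stage 14. At stage 16 it was 0.80 and 0.70. With array weights 734 probe sets passed at stage 14 and 0 at stage 16, so the 2 shares depend on this choice. At an unadjusted p under 0.05 in limma the count was also 0 of 9 in the average and at each stage. Among all 8258 probe sets it was 994 in the average, 661 at stage 14 and 658 at stage 16, so few of 9 would pass at that share. Fits with the replicate pairs as a block, fixed or random, called none at an adjusted p of 0.05. Markers of chitin-making tissue were not level between the genotypes: of the 3 cuticle markers Cpr49Ac was higher in dimm embryos by 0.66 on average (adjusted p = 0.0441 in limma), and Cpr64Ad and TwdlT differed by 0.43 and 0.24 without passing. The 3 other tracheal markers did not pass. Of the 4 glial markers only repo passed, and it was lower (-0.78, adjusted p = 0.0256 in limma). moody (-0.33), nrv2 (-0.18) and Gli (0.07) did not pass. Their part in the values of the chitin genes was not tested.

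The intervals show the precision. kkv differed by -0.09 ± 0.08 on average (95% interval -0.28 to 0.10), so a change of kkv above 0.28 log2 units in either direction lay outside its interval. The average of Gasp was 0.09 (interval -0.15 to 0.32) and that of mmy -0.10 (interval -0.26 to 0.07). knk at -0.15 (interval -0.52 to 0.23), serp at 0.07 (-0.26 to 0.40) and obst-A at 0.06 (-0.56 to 0.68) were less precise. The average of verm was 0.11 (interval -1.18 to 1.41) and that of the brighter obst-E probe set 0.03 (-1.26 to 1.32). The second obst-E probe set, at 0.81, had an interval from -2.36 to 3.99. These wide intervals take in the gap between the 2 stage 16 arrays, which both genotypes shared. With the replicate number as a block they were narrower, from -0.09 to 0.32 for verm, from -0.24 to 0.30 for the brighter obst-E probe set and from -0.14 to 1.76 for the second. Array by array, dimm minus control of verm was -0.36 and -0.18 at stage 14 and 0.64 and 0.34 at stage 16.

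The value furthest from 0 among the 9 genes was that of reb, at 0.41 ± 0.18 (interval -0.04 to 0.86, adjusted p = 0.481 in limma). The dimm arrays of reb were above the control arrays at stage 14, at 5.70 and 5.85 against 5.48 and 5.13. At stage 16 they were level with them on replicate 2 and above on replicate 1. The dimm arrays of mmy lay below the control arrays at both stages, the 1 gene of the 9 whose groups kept apart at each stage in 1 direction. Among all probe sets 12% kept apart so, 6.78% higher and 5.26% lower. The average of mmy had an adjusted p of 0.731, and passed at -0.15 (adjusted p = 0.0499) only without both stage 16 arrays numbered 1, a fit with 1 array against 1 at stage 16. Over the 20 alternatives its adjusted p ran from 0.0499 to 1.

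By stage, dimm arrays of stage 14 did not overlap control arrays for 2 genes that were higher (reb and Gasp) and 4 that were lower (kkv, verm, serp and mmy), a pattern shown by 52.2% of all probe sets, 33% higher and 19.3% lower. At stage 16, mmy alone did not overlap and was lower, against 22% of all probe sets, 9.69% higher and 12.4% lower. The effect of dimm did not differ between the stages by test for any member (adjusted p = 1 for all 10 probe sets, and 0.0121% of all probe sets passed). The difference of the effects was 0.04 ± 0.15 for kkv, 0.29 ± 0.26 for serp and 0.76 ± 1.03 for verm. With the replicate number as a block, the 95% intervals of this difference left out 0 for verm (0.35 to 1.17) and serp (0.04 to 0.55). The blocked intervals of the stage 16 effect did so too, at 0.20 to 0.78 for verm and 0.04 to 0.39 for serp. None of these passed after adjustment (adjusted p from 0.0935 to 0.379 in limma).

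**Figure D4:**
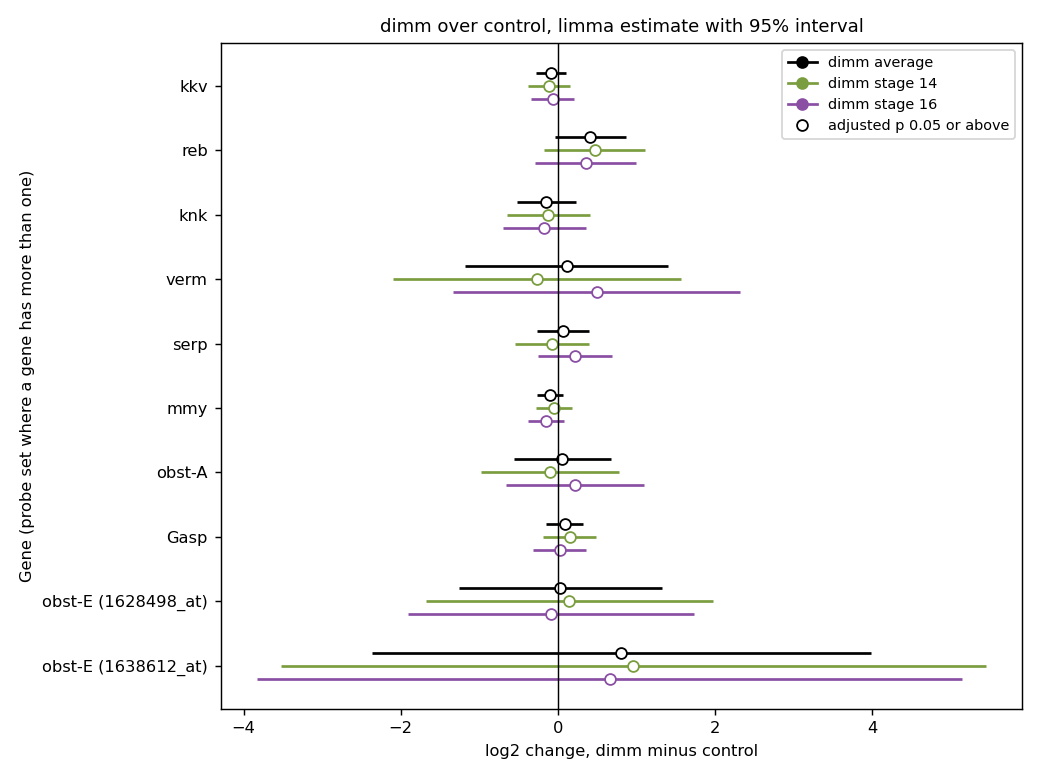
Log2 difference of dimm from control embryos for each probe set, averaged over the stages (black), at stage 14 (green) and at stage 16 (purple), with 95% intervals from limma. All intervals cross 0, and they are narrowest for kkv, mmy and Gasp.

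The other genes of the pathway were taken from 9 lists that hold 39 further genes bright enough to test. As above, rose and fell are used where the adjusted p in limma was under 0.05. None passed for dimm against control, on average or at either stage. Between the stages 20 rose and 6 fell in control embryos and 22 rose and 7 fell in dimm embryos, with medians of 0.88 and 0.91. These are to be read against the 21.8% higher and 39% lower of all tested probe sets in control and the 20.7% and 42.8% in dimm embryos, which hold for each list below too. Peritrophin-A, Chs2 and Blimp-1 passed the filter through 1 stage only. Without them 19 of 36 rose and 4 fell in control embryos, and 21 rose and 5 fell in dimm embryos.

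Among 6 further genes of amino sugar synthesis, 2 rose and 1 fell in both genotypes. Gfat1, which encodes the enzyme that commits sugar to the amino sugar route, rose by 0.92 in control and 1.32 in dimm embryos. Pgi, the phosphoglucose isomerase gene, rose by 1.18 and 1.09. The hexokinase gene Hex-A fell, at -0.94 and -0.99. Gfat1 and Pgi, too, were read by probe sets of the shared type.

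Of 2 further deacetylase genes, Cda4 rose by 1.62 in control and 1.73 in dimm embryos, and Cda5 rose by 1.36 in dimm embryos only by the test (adjusted p = 0.0425 in limma). The difference between the genotypes was not called for any gene of these lists. In the obstructor family obst-B rose by 1.82 and 1.77 beside Peritrophin-A, and obst-F, obst-G, obst-H, obst-I and obst-J were too dim to test.

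Chitinases, which cut chitin, and the related imaginal disc growth factors included 10 tested genes, of which 7 rose and 1 fell in each genotype. Cht6 rose by 2.42 in control and 2.47 in dimm embryos, Cht7 by 1.69 and 1.98, and the growth factor gene Idgf6 by 1.45 and 1.74. Cht11 fell, at -1.44 in both.

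Of 7 zona pellucida proteins, which shape the apical surface of epidermal cells, 5 rose in each genotype. cyr rose by 2.19 in control and 2.31 in dimm embryos, dy by 2.16 and 1.92, mey by 2.07 and 1.83 and tyn by 1.54 and 1.38. Of 4 tested genes of cuticle tanning 2 rose. amd, a decarboxylase-like gene of cuticle cross-linking, rose by 3.80 and 3.40, and stw, which encodes laccase 2, by 2.97 and 3.04.

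Of 6 transcription factors of epidermis and trachea, 3 fell in control embryos, and 4 fell and 1 rose in dimm embryos, shares to be set against the 39% and 42.8% of all probe sets that were lower. Blimp-1, a repressor that times cuticle and tracheal maturation, read between 8.69 and 8.87 at stage 14 and between 2.21 and 2.27 at stage 16, where it was at background. With values below 4 raised to 4 Blimp-1 was 28.5-fold lower in control embryos by the means of 2 arrays. ovo, whose shavenbaby product patterns epidermal cell shape, fell (-1.81 in control and -2.03 in dimm embryos), as did rib (-1.07 and -1.17). In dimm embryos grh, which encodes the Grainy head regulator of cuticle genes, fell by 0.84 ± 0.20 (adjusted p = 0.0141 in limma), and ftz-f1 rose by 3.23 ± 1.04 (adjusted p = 0.0385). In control embryos grh differed by -0.56 ± 0.20 (adjusted p = 0.0557 in limma) and ftz-f1 by 2.31 ± 1.04 (adjusted p = 0.104).

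**Figure D5:**
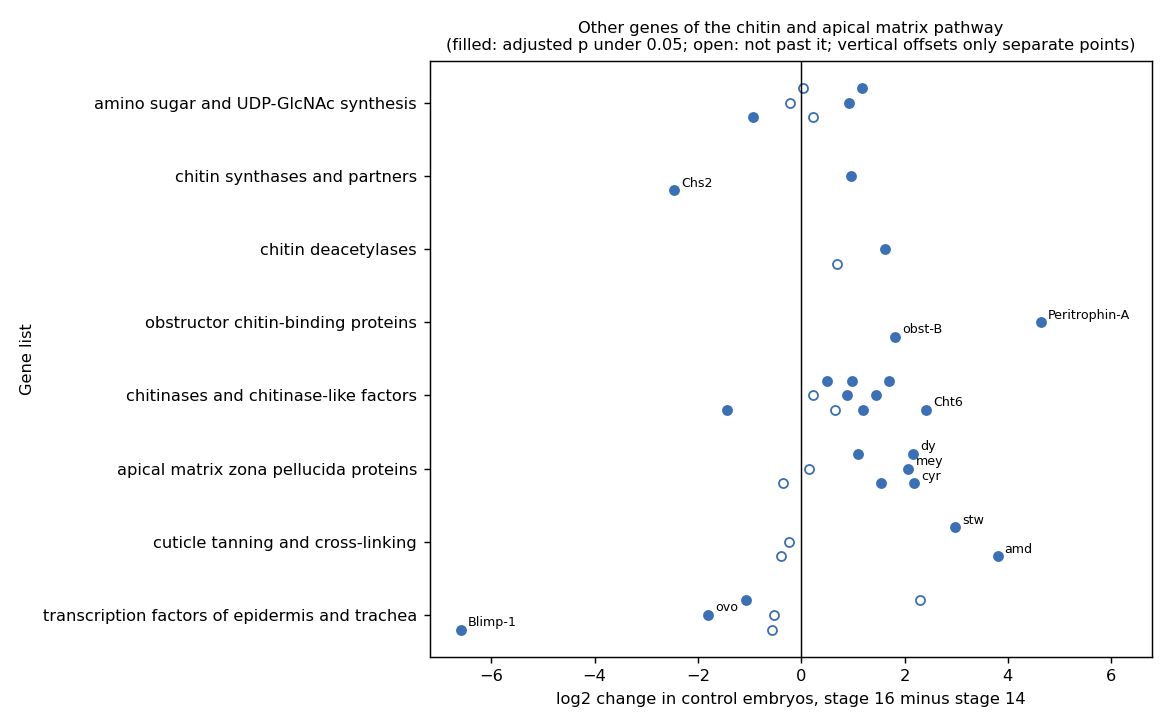
Log2 change from stage 14 to stage 16 in control embryos for 39 further pathway genes by list (filled where the adjusted p is under 0.05). Most filled points of the chitin-binding, chitinase and zona pellucida lists lie to the right of 0, while Blimp-1, Chs2 and ovo lie to the left, and the places of Peritrophin-A, Chs2 and Blimp-1 rest on signals below 4 at 1 stage.

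The profile of kkv was compared by Pearson correlation with 3700 other genes. Each had a tested single-gene probe set with an SD of at least 0.5 over the 8 arrays, and stood on the one most like kkv. The most alike were CG17600 (0.999), sbm (0.999), Osi12 (0.999), Mlc1 (0.999), CG9568 (0.998) and CG18609 (0.998). The 8 arrays fall into 2 stages, so the correlation reads mostly the difference between them and is a description. Osi12 belongs to the Osiris family of insect membrane proteins and Mlc1 encodes a muscle myosin light chain. In control embryos Osi12 rose by 3.90 and Mlc1 by 2.40.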

How the data were processed

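The deposited table holds log2 probe set signals on 8 arrays. The authors made these log2 values with GCRMA 2.22.0 in R 2.12.1 per the submitters' processing notes, which list limma too. No source used here says if the 8 arrays were normalised in 1 run, and the floor differs between stages (2.18 and 2.19). Control probe sets (183 of 18952) were left out, and names were updated through RefSeq gene identifiers (Release 6 plus ISO1 MT), with 89 identifiers unmatched.

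Probe sets above 4 on at least 2 arrays (8258) were fitted with limma 3.58.1 in R 4.3.3 as 4 group means (4 residual and 1.45 prior degrees of freedom). Benjamini-Hochberg adjustment ran over all of them, at 0.05. A gene stood on its brightest single-gene probe set, except in the ranking by likeness to kkv. The fit was tested on simulated data with independent noise on each array. That simulation left out the joint deviation of same-numbered arrays given below, so it cannot check the fit under it. The members and the gene lists were chosen with earlier results of these data known. Named genes were all members, up to 4 called genes per list and comparison by size, and the 6 genes most like kkv.

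Same-numbered arrays deviated together within a stage (correlation across probe sets 0.906 at stage 16 and 0.155 at stage 14), and between -0.0241 and 0.134 across stages. Alternatives varied filter, floor, scaling, moderation, weights, blocks and arrays. No sequences are shown, since no sequence table was used here.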

Additional observations from a re-analysis of the deposited data

How the results depend on the processing

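The count of members called kept within 1.5 times of its value under every alternative tried in the 6 comparisons, with 1 exception: without both stage 16 arrays numbered 1, mmy passed for dimm against control on average, so 1 member was called in place of 0. For the stage change the count ran from 5 to 9 in control and from 5 to 9 in dimm embryos, and over the 7 genes above 4 at both stages, a count added after seeing the data, it was 4 and 5. Leaving out any 1 array gave 5 to 6 in control, 5 to 8 in dimm embryos, and 0 for each dimm effect. The stage change of verm reversed, to 0.48 in control embryos without both stage 16 arrays numbered 1, and to -0.44 in dimm embryos without both numbered 2, an alternative chosen after seeing the data. Of 1184 values of members under alternatives, 1159 kept their call, 10 lost it and 13 gained it. Over 20 alternatives the adjusted p of verm ran from 0.00232 to 0.803 in control and from 0.00386 to 0.805 in dimm embryos, that of serp from 0.00988 to 0.583 and from 0.00193 to 0.138, and that of obst-A from 0.0158 to 0.848 and from 0.00425 to 0.779. For the brighter obst-E probe set it ran from 0.000654 to 0.0539 and from 0.00065 to 0.0691. Among the 911 that were not called in either fit, 61 changed sign.

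With the replicate block, 6 members were called in control and 7 in dimm embryos for the stage change and 0 for each dimm effect, as without it. For the dimm effects the block was fitted within each stage. For the stage change it was a single term shared by the stages. Same-numbered arrays hardly deviated together across stages (correlation -0.0241 to 0.134), so the shared term is no check of the stage change. The block moved the number of all probe sets called for dimm on average from 124 to 639, at stage 14 from 28 to 157 and at stage 16 from 30 to 219. Over all alternatives these numbers ran from 3 to 1061, from 3 to 734 and from 0 to 631, that for the difference between stages from 1 to 121, and those for the stage change from 3648 to 14601 in control and from 3958 to 14766 in dimm embryos. The counts of 14601 and 14766 came from the fit without the filter, over 18769 probe sets. On an array 38.5% to 41.2% of these lay at the floor. The floor differs between the stages, so a probe set at the floor on all arrays differs too. Signals near the floor limit what can be said of reb at stage 16 and obst-E at stage 14.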
